A study of Mus musculus with 2 samples.

Results

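Tip cells lead the sprouts of a growing vessel bed, and many of the transcripts used to name them encode proteins that leave the cell or sit on its surface. The genes described here are Esm1, Apln, Pdgfb, Adm, Aplnr, Unc5b, Plaur, Kcne3, Mcam and Lamb1, a list of symbols named for their place in tip cell signalling and adhesion, each matched to 1 Ensembl identifier present in both libraries. These 10 genes were chosen with earlier results of these data known. They are 10 of the 22687 genes with a symbol at postnatal day 6 (P6) and of the 21736 at postnatal day 15 (P15), of which 19813 were in both. Retinas of C57BL/6 wild-type mice gave 1 droplet library per age, made from CD31+CD45- cells taken by fluorescence-activated sorting, and the number of animals is not given in the sources used here. Cluster names were those of the authors' source data sheet, which in the copy used here names 1560 P6 cells and the earliest 438 P15 cells of its order. Cells were counted as passing when they met the authors' stated limits on genes, mitochondrial share and 3 contaminant genes (Hbb-bt, Neurod1 and Cd63).

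The P6 library held 13956107 unique molecular identifiers (UMIs) over 1984 barcodes, at a median of 5543.5 (604 to 80800), and the P15 library 11587949 over 2141, at a median of 4615 (11 to 38972). The 1424 passing P6 cells had a median of 4985 UMIs and the 1644 passing P15 cells 4213.5, against 5363.5 and 4354 in the labelled cells. Depth differed more between clusters than between ages, from 3204 in Capillary to 7953.5 in Proliferative cells at P6 and 5586.5 in the 170 Tip cells. The 46 Tip cells of P15 had 5851.5. The same barcode sequence occurred in both libraries 7 times. Levels are given as UMIs per 1000000 (CPM) summed over the cells of a group, with exact Poisson intervals, and shares of cells with Clopper-Pearson intervals. All intervals are at 95% and cover counting error only, because each age is 1 library and its cells are not replicates.

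VEGF from the unvascularised retina selects tip cells, and Dll4 to Notch signalling holds their neighbours back as stalk cells. A tip cell both reads guidance and growth factors through surface receptors and secretes factors that recruit pericytes and direct the cells behind it. Its membrane and matrix proteins also anchor the sprout as a new basement membrane is laid down. A gene is called Tip specific here when its level in Tip cells was at least 3-fold that of all other labelled cells and at least 2-fold that of the next cluster of at least 30 cells. It is called shared when raised at least 1.5-fold in Tip without meeting those limits. Neighbours in the order of clusters are said to overlap when the interval of their ratio holds 1, and to be a step apart when it does not.

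At P6 these limits named 1 of the 10 genes, Esm1, as Tip specific, against 29 of 11734 genes tested (0.247%). A further 7 (Apln, Pdgfb, Adm, Kcne3, Plaur, Mcam and Lamb1) were shared, and all 8 raised genes stood among 1184 genes at or above 1.5-fold (10.1%). At P15 4 genes, Esm1, Adm, Kcne3 and Plaur, were Tip specific against 45 of 8539 (0.527%), and Apln, Aplnr, Mcam and Lamb1 were shared, among 1069 genes at or above 1.5-fold (12.5%). The median ratio of Tip to other labelled cells was 2.17 over the 10 genes at P6 and 2.47 at P15, beside 0.986 and 0.973 over all genes tested. Of the rest, the receptor gene Unc5b was not raised in Tip cells at either age, Aplnr was not at P6 and Pdgfb was not at P15. The clusters were made from these same cells, and the paper names Tip cells by high Esm1. A ratio of Tip to other cells is therefore a description and not a test. The only Tip specific call at P6 thus falls on the gene that named the cluster. Counts and medians set beside all genes are descriptions too, as the 10 genes were chosen with earlier results of these data known.

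**Figure D1:**
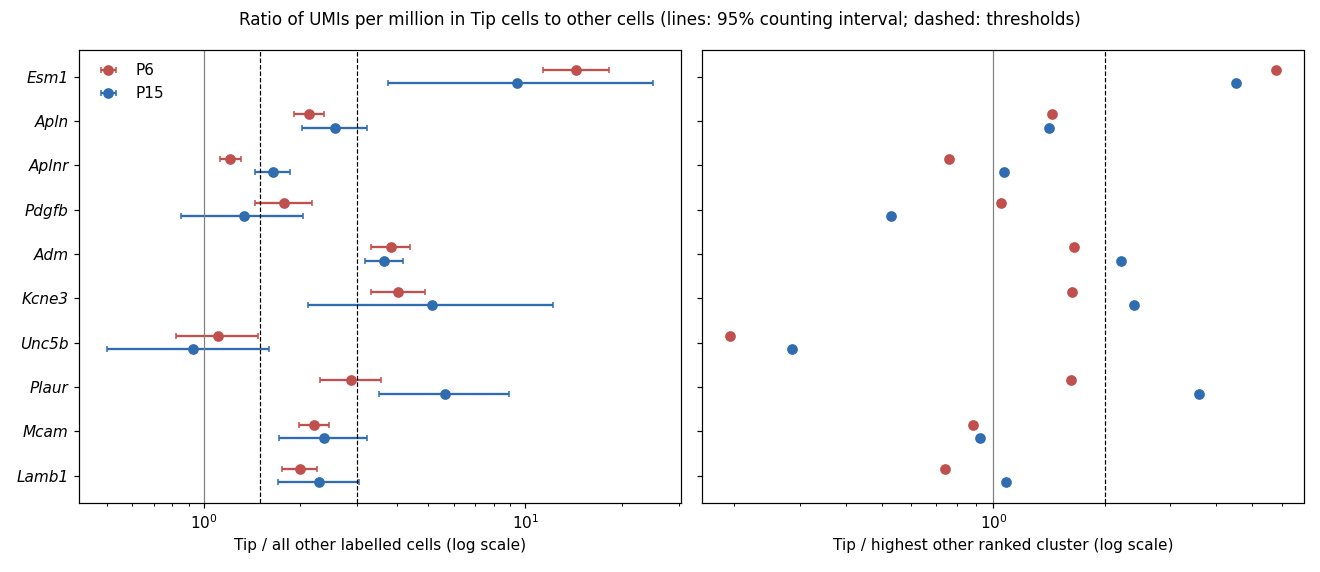
Level of each gene in Tip cells over all other labelled cells with its interval (left) and over the highest other cluster (right), at P6 and P15, on log scales. Dashed lines mark the folds used to call a gene Tip specific.

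Labels were compared with markers that play no part in the list where possible. The 6 endothelial markers were all detected in Tip cells of both ages and summed to 10046 CPM at P6 and 14922 at P15. Of 6 Tip markers, 5 are among the genes described here, and the remaining one, Angpt2, had 103 CPM in Tip against 9.04 in other labelled cells at P6 (ratio 11.4) and 130.2 against 11.9 at P15 (10.99). The summed Tip markers reached 1041 CPM in P6 Tip cells, followed by 484 in Capillary and 444 in Primitive, and were lowest in Arterial cells at 137. When labels were predicted from 15 nearest neighbours with the 10 genes left out, 77.5% of 1998 held-out labels were returned. The figure was 64.4% for the 216 Tip cells and 40.3% for Capillary cells.

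A background from free RNA was read from 44 P6 barcodes with a neural profile (median 3446 UMIs, against 4985 in passing cells), in which the neural markers summed to 5773 CPM. A UMI of Esm1 was present in 4.55% of them, of Apln in 9.09%, of Lamb1 in 6.82%, of Aplnr, Unc5b and Mcam in 4.55% each, and of Adm and Kcne3 in 2.27% each. Pdgfb and Plaur had 0 of 44 (upper limit 8.04%). These shares were not thinned and come from barcodes picked for few endothelial markers, so they give only a rough scale for low detection. Esm1 had a UMI in 6.32% and Aplnr in 84.3% of passing P6 cells. P15 offered 5 neural-like barcodes, too few for such a scale.

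**Figure D2:**
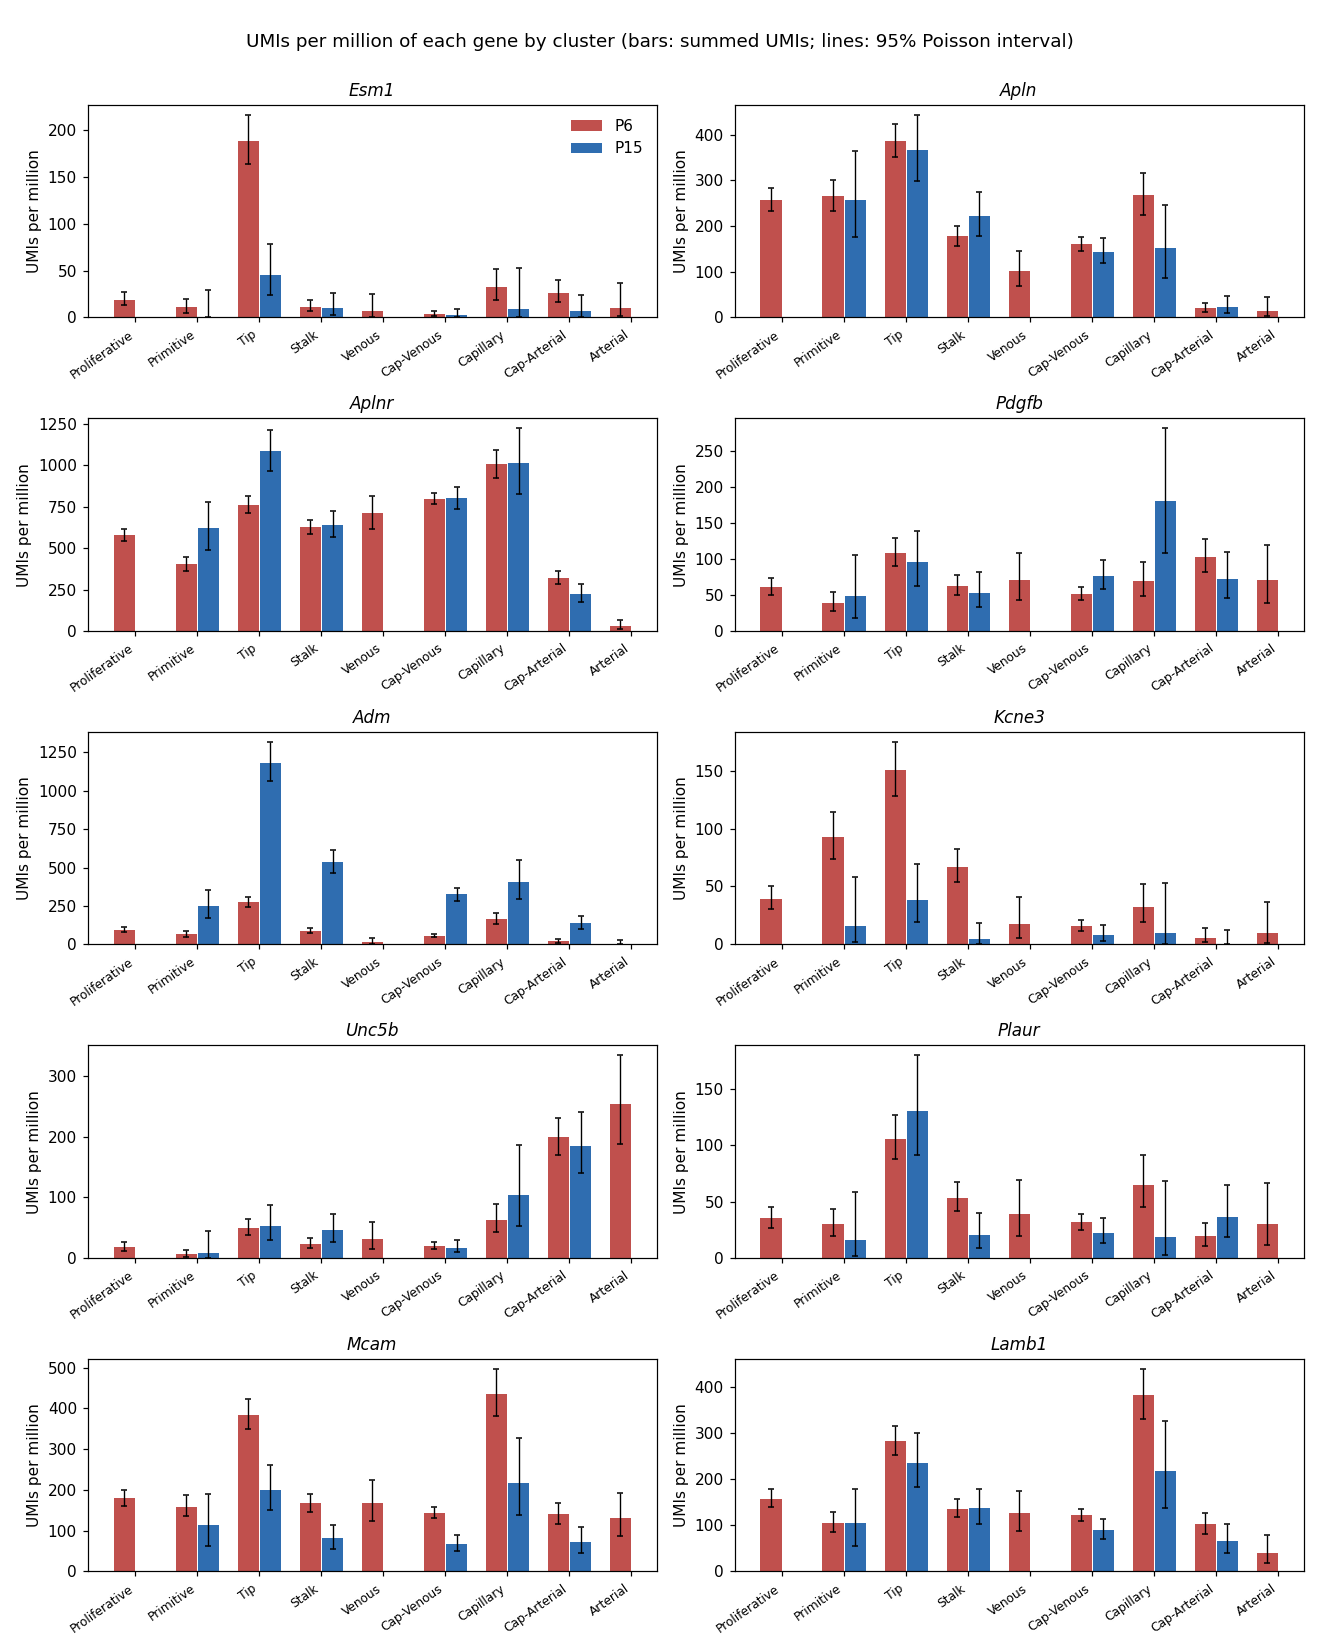
Level of each gene by cluster in CPM at P6 (9 clusters) and P15 (6 clusters of at least 30 cells), with Poisson intervals.

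Among the ligands, Esm1 (ENSMUSG00000042379.8, chromosome 13, 113209659 to 113218098, plus strand of GRCm38) encodes endocan, a secreted proteoglycan that binds fibronectin and leaves more VEGF free near the sprout. It had 189 (95% interval 164 to 216) CPM in P6 Tip cells and 45.8 (95% interval 24.4 to 78.2) in P15 Tip cells, the latter from 13 UMIs. At P6 Capillary followed at 32.5 (17 UMIs) and Cap-Arterial at 26.3, and the intervals overlapped at each later step of the order, which ran through Proliferative (19.1), Stalk (11.4), Primitive (10.6), Arterial (10.1) and Venous (7.03) to Cap-Venous (4.13). Its Tip level was 5.80-fold that of Capillary, the widest lead of the 10 genes at P6. At P15 Stalk followed Tip at 10.1 from 4 UMIs, a lead of 4.52-fold, and no UMI was found in Primitive cells. Against all other labelled cells the P15 ratio was 9.44 (3.73 to 25.0), from 22 UMIs. With cells thinned to 3000 UMIs it was 18.8, and as a mean over cells 17.8. A single Tip cell held 8 of the 13, and without it the ratio was 3.69 and the lead 1.77-fold, under the 2-fold limit, which ends the P15 call.

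Within the Tip cluster Esm1 was carried by few cells. A UMI was present in 24.1% of P6 Tip cells, and in 19.2% (13.4% to 26.3%) after each cell was thinned to 3000 UMIs, with 14 Tip cells too shallow to thin. The 17 cells with most Esm1 held 176 of its 211 Tip UMIs (83.4%), up to 26 in 1 cell, and at P15 5 of 46 cells held 12 of 13. No other gene of the 10 was so concentrated at P6: the same number of cells held 63.6% of Unc5b, 60.7% of Kcne3, 55.4% of Adm, 50.8% of Plaur, 47.2% of Apln and 28.3% of Aplnr. Tip cells held 65.3% of all labelled Esm1 UMIs at P6 and 59.1% at P15. Thinned shares outside Tip at P6 included 5.26% in Cap-Arterial, 4.40% in Capillary and 0.773% in Cap-Venous. The 4.55% of the neural-like barcodes rests on 44 barcodes that were not thinned. Whether Esm1 in these clusters exceeds free RNA was not tested.

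Start windows of 300 bases (RefSeq, GRCm38.p6) were read for 3 short motifs on both strands: ACGTG, the core bound by hypoxia-inducible factors, CCGGAA, an ETS core, and TGGGAA, a core for RBPJ, the partner of Notch. They occur in 23.6%, 23.1% and 23.9% of 16775 windows, so each is common, and CCGGAA and TGGGAA share their last 4 bases. The window of Esm1 (chr13:113209409-113209708, plus strand) has none of the 3.
Esm1: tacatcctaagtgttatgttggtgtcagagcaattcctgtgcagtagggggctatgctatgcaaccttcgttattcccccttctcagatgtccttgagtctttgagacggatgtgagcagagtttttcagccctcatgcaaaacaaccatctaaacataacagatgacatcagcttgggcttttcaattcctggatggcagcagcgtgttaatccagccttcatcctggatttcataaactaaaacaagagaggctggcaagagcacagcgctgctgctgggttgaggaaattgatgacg

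Apln (ENSMUSG00000037010.7, chromosome X, 48025146 to 48034853, minus strand) encodes apelin, the peptide ligand of the receptor encoded by Aplnr. In Tip cells it had 386 (95% interval 351 to 424) CPM at P6 and 366 (95% interval 299 to 443) at P15. Other labelled cells had 181 and 143, which gave ratios of 2.13 (1.91 to 2.37) and 2.56 (2.02 to 3.23). Both miss the 3-fold limit, so Apln is a shared gene, but at P15 it passed both limits with predicted labels (5.31, lead 2.96-fold) and without pericyte marker cells (3.21, lead 2.01-fold). At P6 Tip stood a step, 1.44-fold, above Capillary (268), which overlapped Primitive (265) and Proliferative cells (257). A further step led to Stalk (177) and Cap-Venous (160.1), another to Venous (101.9), and a last to Cap-Arterial (20.3) and Arterial (15.2). At P15 the order was Tip, Primitive (258), Stalk (223), Capillary (151) and Cap-Venous (144), with neighbours overlapping, and then Cap-Arterial (23.1). Apln was thus lowest in the arterial clusters ranked at each age, and thinned detection at P6 ran from 49.0% in Primitive and 48.7% in Tip to 5.26% in Cap-Arterial cells. Proliferative cells fell from 66.2% to 40% on thinning, as their depth is the highest.

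Pdgfb (ENSMUSG00000000489.6, chromosome 15, 79995874 to 80014977, minus strand), which encodes the growth factor that draws pericytes to the sprout, was the least restricted of the ligands. Its Tip level at P6 was 108 (95% interval 89.7 to 129) CPM, beside 103 (82.3 to 127) in Cap-Arterial cells, and neighbouring intervals overlapped down the whole order: Arterial (70.9), Venous (70.3), Capillary (68.9), Stalk (62.7), Proliferative (60.3), Cap-Venous (51.5) and Primitive (39.3). At P15 Capillary came highest at 179.7 (108 to 281) from 19 UMIs, and Tip had 95.02 (62.6 to 138). Cap-Venous (76.0), Cap-Arterial (72.7), Stalk (53.1) and Primitive (48.4) followed, neighbours overlapping. The ratio of Tip to other labelled cells was 1.78 (1.44 to 2.17) at P6 and 1.34 (0.849 to 2.03) at P15. The gene was thus shared at P6, with Cap-Arterial cells next to Tip, and not raised at P15. There it passed 1.5-fold after thinning (1.63) and without pericyte marker cells (1.67). Thinning took its detection in P6 Tip cells from 44.1% to 21.8%, against 29.3% in Cap-Arterial cells.

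Adm (ENSMUSG00000030790.15, chromosome 7, 110627661 to 110629820, plus strand) encodes adrenomedullin, a secreted peptide of vessel growth and barrier function. Tip cells had 274 (95% interval 245 to 307) CPM at P6 and 1183 (95% interval 1059 to 1316) at P15, and other labelled cells 71.7 and 325. The ratios to other cells were similar, 3.83 (3.33 to 4.40) and 3.63 (3.17 to 4.16). The lead was 1.65-fold (1.30 to 2.12) over Capillary (166) at P6 and 2.21-fold (1.86 to 2.64) over Stalk (534) at P15. These intervals overlap, and Venous, Proliferative and Arterial cells were not ranked at P15. By these values Adm was shared at P6 and Tip specific at P15, though the P15 lead interval holds the 2-fold limit. Without labelled cells holding a pericyte marker UMI the P15 values were 2.93 and 1.82-fold, and that call ended. Below Capillary at P6 came Proliferative (96.8), Stalk (90.5), Primitive (66.9) and Cap-Venous (56.0), then, after a clear step, Cap-Arterial (20.3), Venous (17.6) and Arterial (5.06). At P15 the order below Stalk was Capillary (407), Cap-Venous (325) and Primitive (250.2), overlapping in turn, with Cap-Arterial (139) apart. Adm was therefore higher in each cluster compared at P15, where Cap-Arterial was the lowest of those ranked. At P6 Venous cells (5 UMIs) lay as low as the arterial clusters. After thinning 40.4% of Tip cells held a UMI at P6 and 85.4% at P15. The window of Adm (chr7:110627407-110627706, plus strand) has TGGGAA once and neither other motif.
Adm: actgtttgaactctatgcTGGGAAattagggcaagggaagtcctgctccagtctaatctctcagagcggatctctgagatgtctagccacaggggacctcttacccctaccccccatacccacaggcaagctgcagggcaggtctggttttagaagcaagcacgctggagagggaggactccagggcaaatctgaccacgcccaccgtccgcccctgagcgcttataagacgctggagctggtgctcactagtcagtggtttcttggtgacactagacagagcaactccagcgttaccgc

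Of the receptors, Aplnr (ENSMUSG00000044338.9, chromosome 2, 85136225 to 85139923, plus strand), the apelin receptor, is coupled to G proteins and was detected in most cells. It was highest in P6 Capillary cells at 1006 (95% interval 922 to 1096) CPM, a step above Cap-Venous (798), which was followed by Tip (761, 711 to 814), Venous (710.1), Stalk (629) and Proliferative (579), neighbours overlapping. Primitive (403), Cap-Arterial (319) and Arterial (30.4) came below in separate steps. At P6 Tip cells thus lay between Cap-Venous and Venous cells, and the ratio of Tip to other labelled cells was 1.21 (1.13 to 1.30). At P15 Tip came highest at 1084 (966 to 1212), overlapping Capillary (1012), then Cap-Venous (801), Stalk (643) with Primitive (621), and Cap-Arterial (225), and the ratio was 1.64 (1.44 to 1.86), or 1.47 with predicted labels, under the limit of 1.5. Thinned P6 detection was 80.8% in Tip and 88.1% in Cap-Venous but 6.25% in Arterial cells, and all 41 thinned P15 Tip cells held a UMI (lower limit 91.4%). Over the 15 clusters of both ages, genes most like Aplnr in level were Map7 (0.959), Ackr2 (0.951) and M6pr (0.937) by Pearson correlation. The 15 points come from 2 libraries, and clusters of 1 age share its preparation, so such values only describe likeness.

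Unc5b (ENSMUSG00000020099.8, chromosome 10, 60762593 to 60831581, minus strand) encodes a netrin receptor that turns filopodia away and also binds Robo4 and Flrt proteins. It was highest in the arterial clusters at P6 and, among the clusters ranked, in Cap-Arterial cells at P15. P6 Arterial cells had 253 (95% interval 188 to 334) CPM and Cap-Arterial cells 199 (169.5 to 231), overlapping, and a wide step led to Capillary (63.1), Tip (49.2, 37.0 to 64.0), Venous (31.6), Stalk (22.8), Cap-Venous (19.5) and Proliferative (17.9), with Primitive last (6.37). The P15 order was Cap-Arterial (185, 139.7 to 240.2), Capillary (104), Tip (52.8, 29.5 to 87.1, 15 UMIs) and Stalk (45.5), overlapping, then Cap-Venous (17.0) and Primitive (8.07). Ratios of Tip to other labelled cells lay on either side of 1, 1.11 (0.819 to 1.47) at P6 and 0.924 (0.4998 to 1.59) at P15, and after thinning both were below 1 (0.788 and 0.539). Thinned detection at P6 was 46.6% (37.9% to 55.5%) in Cap-Arterial and 9.62% in Tip cells, not far above the 6.44% of Cap-Venous. The genes most like it across clusters were Icam2 (0.929), Atp13a3 (0.929) and Etl4 (0.924), and among the 10 its level ran against Apln (r = -0.741, 15 clusters). The window of Unc5b (chr10:60831532-60831831, minus strand) is the only one with CCGGAA among windows of the 8 genes that have any here, read as TTCCGG on the strand printed.
Unc5b: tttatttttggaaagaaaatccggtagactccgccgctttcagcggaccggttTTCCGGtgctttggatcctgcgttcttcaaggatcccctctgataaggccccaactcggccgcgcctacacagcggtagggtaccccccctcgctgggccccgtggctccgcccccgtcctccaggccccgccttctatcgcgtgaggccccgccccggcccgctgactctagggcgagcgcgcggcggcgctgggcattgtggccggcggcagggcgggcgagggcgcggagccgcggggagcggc

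Plaur (ENSMUSG00000046223.10, chromosome 7, 24462484 to 24475968, plus strand) encodes the urokinase receptor, which holds proteolysis at the cell surface. Its Tip level was 105 (95% interval 87.3 to 126) CPM at P6 and 130.2 (95% interval 91.7 to 179) at P15 (37 UMIs), against 36.7 and 23.2 in other labelled cells, ratios of 2.87 (2.30 to 3.56) and 5.62 (3.52 to 8.93). Capillary came next at P6 (65.0), overlapping Stalk (53.4), and Venous (38.7), Proliferative (35.2), Cap-Venous (31.6), Arterial (30.4), Primitive (29.7) and Cap-Arterial (19.1) followed, neighbours overlapping. At P15 Tip stood 3.58-fold above Cap-Arterial (36.3), and Cap-Venous (22.3), Stalk (20.2), Capillary (18.9) and Primitive (16.1) overlapped below. So this receptor, unlike Aplnr and Unc5b, was led by Tip cells at both ages and met both limits at P15. Its ligand gene Plau had 7 labelled UMIs at P6, 6 of them in Tip cells, and 1 at P15.

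Kcne3 (ENSMUSG00000035165.14, chromosome 7, 100176502 to 100184869, plus strand), on chromosome 7 like Adm and Plaur, encodes a membrane subunit that sets the gating of potassium channels such as Kcnq1. P6 Tip cells had 150.1 (95% interval 128 to 175) CPM, P15 Tip cells 38.7 (95% interval 19.3 to 69.3) from 11 UMIs, no cell with more than 1. At P6 the order stepped down to Primitive (92.4), to Stalk (66.9) and to Proliferative (39.4), and then overlapped through Capillary (32.5), Venous (17.6), Cap-Venous (15.8), Arterial (10.1) and Cap-Arterial (5.98). At P6 Kcne3 alone of the 10 thus had Primitive and Stalk cells directly behind Tip, with thinned detection of 20.5% in Tip, 14.8% in Primitive and 11.7% in Stalk cells. The ratio to other labelled cells was 4.02 (3.32 to 4.87), above 3-fold, but the lead over Primitive was 1.63-fold, which left it shared. At P15 it was Tip specific on few counts, 5.13 (2.11 to 12.2) from 25 labelled UMIs, and Tip overlapped Primitive (16.1, 2 UMIs). Capillary (9.46), Cap-Venous (7.86) and Stalk (5.06) overlapped as well, and Cap-Arterial had 0. Kcnq1 itself was raised in P6 Tip cells, 68.8 CPM against 39.0 (ratio 1.77), but not at P15 (38.7 against 38.8, 0.998).

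Mcam (ENSMUSG00000032135.15, chromosome 9, 44134469 to 44142727, plus strand) encodes the adhesion molecule CD146, and Lamb1 (ENSMUSG00000002900.16, chromosome 12, 31265234 to 31329644, plus strand) the laminin beta 1 chain. Both were shared by Tip and Capillary cells. Mcam had 436 (95% interval 381 to 497) CPM in P6 Capillary and 384 (349 to 422) in Tip cells, overlapping, and a step led to Proliferative (179), Venous (169), Stalk (167), Primitive (159), Cap-Venous (144), Cap-Arterial (141) and Arterial (132), all overlapping in turn. Lamb1 had 383 (331 to 439) in Capillary, a step above Tip (283, 253 to 316), and a further step above Proliferative (158), Stalk (136), Venous (127), Cap-Venous (123), Primitive (106) and Cap-Arterial (103), with Arterial apart at 40.5. Both genes thus had Capillary and Tip cells at the head of their order, and Capillary cells are also the shallowest at P6. Thinning did not part them: 60.4% of Capillary and 59.6% of Tip cells held Mcam, 59.3% and 51.9% Lamb1, against 34.3% and 28.6% of Cap-Venous cells.

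At P15 Mcam fell to 218 (138 to 326) CPM in Capillary and 201 (152 to 259.9) in Tip cells, above Primitive (113), Stalk (81.0), Cap-Arterial (72.7) and Cap-Venous (68.1), neighbours overlapping. Lamb1 had 236 (183 to 299) in Tip and 218 in Capillary, then Stalk (137), Primitive (105), Cap-Venous (90.4) and Cap-Arterial (66.1). Both genes were raised in Tip cells at both ages: ratios to other labelled cells were 2.20 (1.97 to 2.45) and 2.37 (1.72 to 3.23) for Mcam and 1.99 (1.75 to 2.26) and 2.29 (1.71 to 3.04) for Lamb1. Of laminin chains that pair with beta 1, Lamc1 had 206 CPM in P6 Tip cells against 105 (ratio 1.96, 2.18 at P15), Lama4 ratios of 1.64 and 1.78, and Lama5 1.19 and 0.653. Ratios of other matrix genes were 1.19 and 1.34 for Col4a2, 1.25 and 1.18 for Sparc, 1.28 and 1.502 for Col4a1, 1.46 and 1.71 for Nid1 and 2.18 and 1.56 for Nid2. The genes most like Mcam were Col15a1 (0.904), Rpn1 (0.899) and Plxnd1 (0.871), and those most like Lamb1 Map4k5 (0.925), Dcbld1 (0.899) and Flna (0.890), and the level of Mcam followed that of Lamb1 over the 15 clusters at r = 0.786. For Esm1 the closest were Maged1 (0.818), Gm6169 (0.802) and Hecw2 (0.784), and no gene of the 10 came nearer to it than Plaur (0.755). The window of Lamb1 (chr12:31265043-31265342, plus strand) has TGGGAA at 2 sites, while Kcne3 has ACGTG in one window and TGGGAA in another, and Apln, Plaur and Mcam have none of the motifs. No start window was at hand for Aplnr or Pdgfb.
Lamb1: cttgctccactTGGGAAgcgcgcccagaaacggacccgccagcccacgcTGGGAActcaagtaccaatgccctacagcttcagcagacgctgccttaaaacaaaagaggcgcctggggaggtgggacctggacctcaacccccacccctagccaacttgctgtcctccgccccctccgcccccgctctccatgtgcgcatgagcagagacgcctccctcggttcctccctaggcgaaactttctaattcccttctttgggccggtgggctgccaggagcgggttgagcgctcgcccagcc

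**Figure D3:**
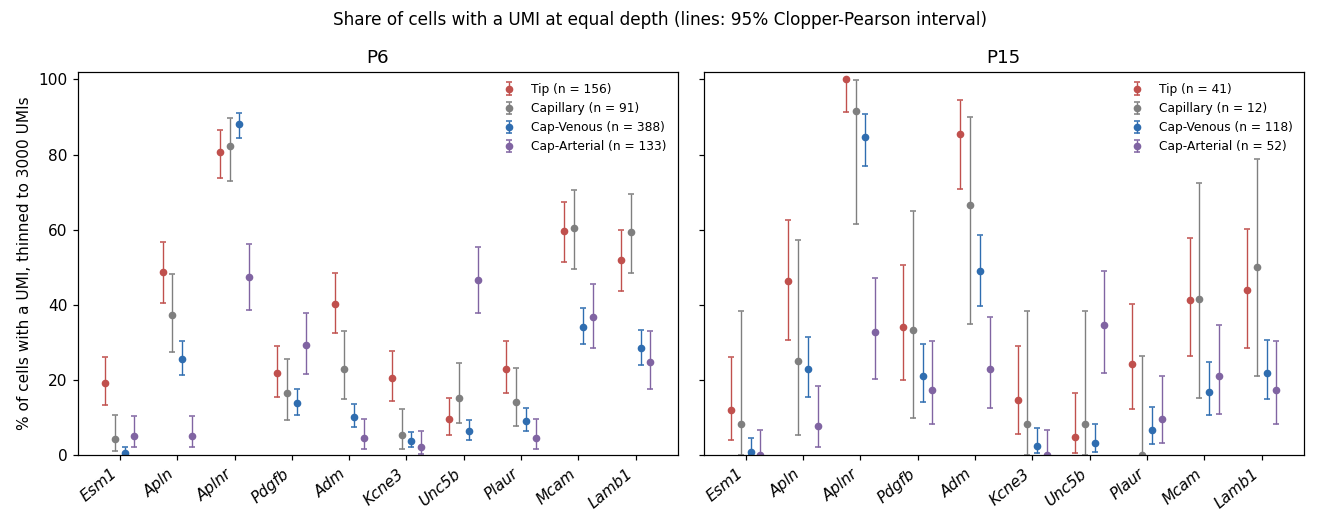
Share of cells with a UMI of each gene after thinning to 3000 UMIs, in Tip (156 cells at P6, 41 at P15), Capillary (91, 12), Cap-Venous (388, 118) and Cap-Arterial (133, 52) cells, with Clopper-Pearson intervals.

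Detection of these genes in the same Tip cells was compared at equal depth. Among 156 thinned P6 Tip cells, Apln was present in 80.0% (61.4% to 92.3%) of cells with Esm1 and 41.3% (32.6% to 50.4%) of cells without, and Adm in 63.3% (43.9% to 80.1%) of cells with Esm1 and 34.9% (26.6% to 43.9%) of cells without. Kcne3 was present in 32.9% (22.5% to 44.6%) of cells with Apln and 8.75% (3.59% to 17.2%) of cells without. Pdgfb differed little, at 26.7% (12.3% to 45.9%) of cells with Esm1 and 20.6% (13.9% to 28.8%) of cells without. Aplnr was present in 63.3% (43.9% to 80.1%) of cells with Esm1 and 84.9% (77.5% to 90.7%) of cells without, with overlapping intervals, and in all P15 Tip cells with or without Esm1. Unc5b, rare in Tip cells, was found in 23.3% (9.93% to 42.3%) of cells with Esm1 and 6.35% (2.78% to 12.1%) of cells without. At P15 5 thinned Tip cells had Esm1, of which 1 had Apln, against 18 of the 36 without, and no difference between such shares was tested. A thinned Tip cell held a UMI of 3.76 of the 10 genes on average at P6 and 4.07 at P15, and 34.0% and 36.6% of Tip cells held at least 5. The share with at least 5 was 17.6% in P6 Capillary, 11.3% in Proliferative, 8.11% in Venous, 7.32% in Stalk, 5.16% in Primitive, 2.58% in Cap-Venous and 2.26% in Cap-Arterial cells, and 0 in Arterial cells.

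Between the ages 3 of the 10 genes were at least 2-fold lower in passing P15 cells, among 635 of 10972 genes (5.79%), and 1 was higher, among 795 (7.25%). Esm1 went from 31.4 to 10.99 CPM, a ratio of P15 to P6 of 0.350 (0.269 to 0.452), Kcne3 from 51.3 to 12.3, 0.241 (0.190 to 0.303), and Mcam from 205 to 97.6, 0.475 (0.434 to 0.519). Mcam missed the limit with every barcode of at least 200 genes (0.512) and with labelled cells (0.503). With every such barcode the ratio of Esm1 was 0.224 (0.185 to 0.269). The fall of Mcam was shared by all 6 clusters compared, 5 with intervals below 1, and in Tip its ratio was 0.522 (0.389 to 0.689). Within Tip cells the ratios were also low for Esm1, 0.243 (0.127 to 0.424), and Kcne3, 0.258 (0.126 to 0.473), and Kcne3 had 2 UMIs left in Stalk and 0 in Cap-Arterial cells. A ligand moved the opposite way: Adm rose from 86.6 to 465, 5.37 (4.94 to 5.84), and in every cluster compared, from 2.44 (1.65 to 3.56) in Capillary to 6.82 (3.80 to 12.8) in Cap-Arterial, with 4.31 (3.68 to 5.05) in Tip. The median ratio was 0.860 over the 10 genes beside 1.09 over all genes compared. Age cannot be told apart from library here, as each age is 1 library.

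The other 6 genes changed less. Apln went from 189.7 to 182 CPM (0.957, 0.888 to 1.03) and Aplnr from 663 to 658 (0.992, 0.953 to 1.03). In passing cells both intervals of this ligand and receptor pair held 1. With every barcode of at least 200 genes neither did, at 0.769 (0.728 to 0.812) for Apln and 1.10 (1.06 to 1.13) for Aplnr. Apln was at 0.788 (0.689 to 0.898) in labelled cells outside Tip and at 0.983 (0.903 to 1.07) without pericyte marker cells. By cluster Aplnr was higher at P15 in Tip (1.42, 1.25 to 1.62) and Primitive cells (1.54, 1.19 to 1.97) and lower in Cap-Arterial (0.703, 0.531 to 0.921), while Apln was lower in Capillary (0.565, 0.314 to 0.9503). Pdgfb went from 66.4 to 77.5 (1.17, 1.03 to 1.32) and was higher in Capillary (2.61, 1.41 to 4.67) and Cap-Venous (1.48, 1.07 to 2.02). Unc5b went from 49.4 to 63.6 (1.29, 1.12 to 1.48), with a higher level in Stalk (1.998, 1.06 to 3.67). Plaur, from 43.9 to 33.5 (0.763, 0.645 to 0.902), was lower in Stalk (0.379, 0.158 to 0.786) while its Tip interval held 1 (1.23, 0.829 to 1.80). Lamb1, from 165 to 125 (0.753, 0.691 to 0.820), was lower in Capillary (0.569, 0.352 to 0.878) and Cap-Venous (0.738, 0.560 to 0.959), with a ratio of 0.832 (0.630 to 1.09) in Tip.

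**Figure D4:**
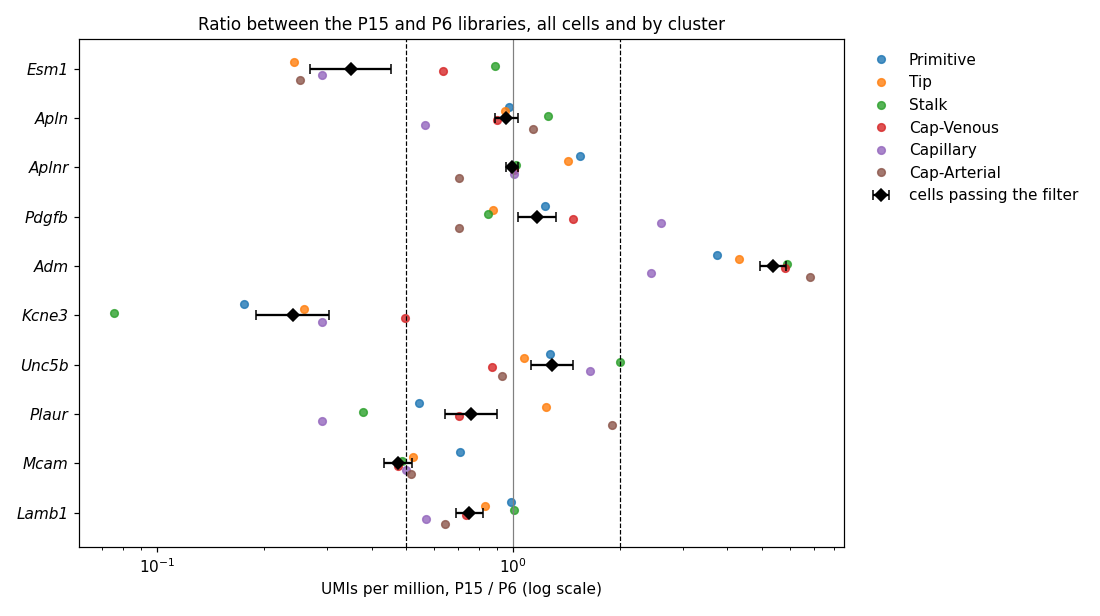
Ratio of P15 to P6 of each gene in passing cells (diamonds, with interval) and in each of 6 clusters (dots), on a log scale. Dashed lines mark 2-fold down and up.

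Cell content shifted between the libraries as well. In passing cells the endothelial markers (6 of 6 detected at each age, Cldn5 the most abundant) summed to 9388 CPM at P6 and 14817 at P15. Pericyte markers went from 13.1 (6 of 7, Cspg4 at 0) to 295 (7 of 7), with Rgs5 most abundant at 8.76 and 242. Within Tip cells they went from 10.7 (4 of 7, with Pdgfrb, Kcnj8 and Cspg4 at 0) to 194 (5 of 7, with Notch3 and Cspg4 at 0). Of the 10 genes, 19 pericyte-like P15 barcodes (median 2718 UMIs) had 638 CPM of Mcam (39 UMIs), 262 of Lamb1 (16), 114 of Adm (7) and 65.4 of Unc5b (4), and 0 UMIs of the other 6. They also held 1145 CPM of endothelial markers, so whether pericytes are the source was not tested. Without cells holding a pericyte marker UMI (1374 cells left at P6, 1137 at P15) the P15 to P6 ratio was 0.446 for Mcam and 5.42 for Adm.

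Glial markers (6 of 6 at each age, Glul most abundant) summed to 369 and 1228 CPM in passing cells, and blood markers to 22.6 (3 of 5, Hbb-bt and Alas2 at 0) and 173 (4 of 5, Hbb-bt at 0), with Hbb-bs most abundant. Neural markers summed to 65.4 (8 of 9, Stmn2 most abundant, Neurod1 at 0) and 77.1 (7 of 9, Neurod1 and Tubb3 at 0). Immune markers summed to 2.22 and 5.97 (5 of 6 at each age, Tyrobp and then C1qb most abundant). Smooth muscle markers summed to 0.654 and 6.51 (3 of 4 at each age, Tagln at 0 at P15). Of these Acta2 was level with Myh11 at P6 and most abundant at P15. The Tip markers (6 of 6, Apln most abundant) summed to 402 and 349. In the 40 Arterial cells of P6 a single gene carried nearly all of the neural and of the glial sum, with 1179 CPM of Stmn2 and 1564 of Glul and the other 5 glial markers at 0, against 16.1 for all neural markers and 154 of Glul in Tip. The same genes led in P6 Cap-Arterial cells, with 234 CPM of Stmn2 in a neural sum of 245 and 1591 of Glul in a glial sum of 1592. Whether such content accounts for any difference in level between the ages was not tested.

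Other named lists placed these genes in context. Of 21 further tip cell genes, 2 were Tip specific at P6, Angpt2 and Trp53i11 (575 against 185 CPM, ratio 3.11), and 12 were raised, with a median ratio of 1.64. At P15 the counts were 1 (Angpt2) and 12 of 20, with a median of 1.56. Over all genes tested, 0.247% were Tip specific and 10.1% raised at P6, and 0.527% and 12.5% at P15. The medians of the 10 genes, of which Esm1 names the Tip cluster, were 2.17 and 2.47. Both lists were chosen with earlier results of these data known, so the medians are not a test. Cxcr4, a receptor, had a ratio of 3.45 at P6 but stood only 1.22-fold above Capillary. Of the tip list 2 genes were lower at P15, Cxcr4 (40.5 to 17.4 CPM, 0.428) and Igfbp3 (668 to 211, 0.316), and none was higher. Over all genes compared, 5.79% were lower and 7.25% higher. Stalk and quiescence genes had median ratios of 0.983 at P6, close to the 0.986 of all genes, and 0.653 at P15, against 0.973. Notch4 was raised in Tip at P6 (1.55) and Klf4 had ratios of 0.296 and 0.314. Klf2 (581 to 2019 CPM, 3.47) and Klf4 (83.3 to 264, 3.17) were higher at P15.

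The 22 genes for partners of these proteins split by protein. The receptor side of adrenomedullin was lower in Tip: Calcrl, the adrenomedullin receptor, had ratios of 0.660 at P6 and 0.398 at P15, and its coreceptor Ramp2 0.868 and 0.749. Adm was thus led by Tip cells and its receptor by other labelled cells. The integrin chain Itgb1 had ratios of 1.40 and 1.38, Itga6 1.009 and 0.650, and Robo4, which binds Unc5b, 1.36 and 1.43. Several partner genes were close to absent from labelled cells, with 2 UMIs at P6 and 4 at P15 for Pdgfrb, 6 and 1 for Ntn1, and 3 and 0 for Apela. The medians of the list were 1.35 and 0.998 in Tip and 1.08 between ages, and Lama5 alone was higher at P15 (10.6 to 33.0 CPM, 3.11). Over all genes compared, 7.25% were higher.

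At P6 Esm1 was also abundant outside the cells that passed. The 399 P6 barcodes that neither passed nor had a label (20.1%) had 92.7 CPM of Esm1, 2.95 times the passing cells, against 12.9 CPM and 1.17 times at P15. The P6 ratios were 1.67 for Kcne3, 1.64 for Apln, 1.61 for Adm and 0.639 for Aplnr. One of the limits removed any barcode with a UMI of Cd63, a tetraspanin gene used as a pericyte marker. The 155 of these of at most 3500 genes (median 5141 UMIs) had 177 CPM of Esm1 at P6, 5.27-fold the labelled cells, and 301 of Apln, 1.47-fold. Without those holding a pericyte marker, Neurod1 or Hbb-bt, 109 remained at 209.7 and 345 CPM. At P15 the 42 such barcodes had 62.9 CPM (34.4 to 106) of Esm1, against 10.3 in labelled cells. Among P6 barcodes of 1500 to 3500 genes, Cd63 was present in 22.5% (15.4% to 31.0%) of the 120 with Esm1 and 8.46% (7.02% to 10.1%) of the 1336 without. At P15 these shares were 18.9% (9.44% to 32.0%) of 53 and 9.99% (8.47% to 11.7%) of 1401, with overlapping intervals. With all limits but that of 200 genes lifted together, the P15 to P6 ratio of Esm1 was 0.224.

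**Figure D5:**
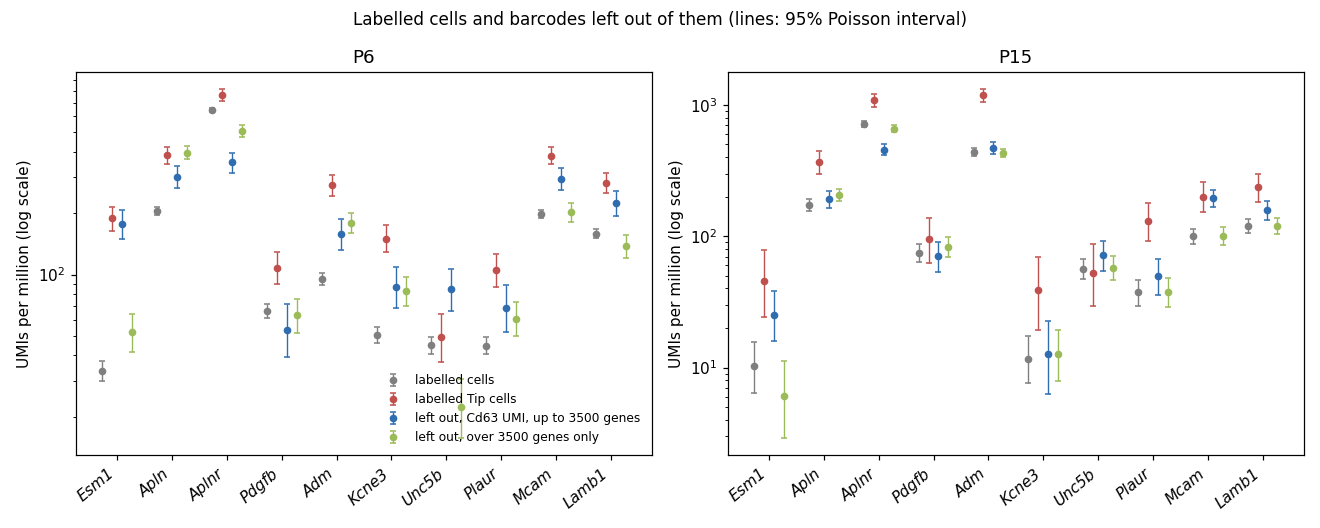
Level of each gene in labelled cells, labelled Tip cells, barcodes left out for Cd63 with at most 3500 genes, and barcodes left out for gene number only, on a log scale with Poisson intervals.

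Esm1 was Tip specific at both ages, though at P15 the call ended without 1 Tip cell and under 3 other alternatives. After thinning (ratio 18.8) and in cells of at most 3500 genes (12.7) it ended by too few UMIs. Plaur, Adm and Kcne3 met the limits at P15, where calls of Adm and Kcne3 also ended under some alternatives, that of Kcne3 by too few UMIs, and Apln, Mcam and Lamb1 were raised in Tip but shared at both, with Apln past the limits at P15 under 2 alternatives. Several limits apply to these values. Each age is 1 library, so age, preparation and sequencing cannot be separated. P15 labels cover 438 of 2141 barcodes, which leaves 46 Tip cells and calls of Esm1 and Kcne3 on 22 and 25 UMIs. Labels rest on transcripts that include these genes, and the paper names Tip cells by Esm1. Free RNA was gauged from a small number of barcodes. Transcript levels were measured, and protein, secretion and position in the retina were not analysed here.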

How the data were processed

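The values are counts that the authors deposited, as UMIs per gene and cell barcode in 1 matrix per age. The submitters' processing notes name Seurat 3.0 and the mm10 build, and the aligner is not given in the sources used here. Genes were joined by Ensembl identifier to GENCODE symbols and GRCm38 positions. Passing cells had 200 to 3500 genes and a mitochondrial share of 5% or less, and lacked Cd63, Hbb-bt and Neurod1, while every labelled cell was used for clusters, including 161 P6 and 29 P15 cells above 3500 genes. UMIs were summed by group and divided by all UMIs of the group. Intervals were exact Poisson for sums, Clopper-Pearson for shares and conditional binomial for ratios, at 95%. A fold with a count of 0 would use a floor of 3 counts. Genes entered the cluster comparison with at least 20 labelled UMIs and the comparison of ages with at least 50, at a fold of 2. Likeness is a Pearson correlation of log levels, after adding 10 CPM, over 15 clusters of at least 30 cells among genes with at least 200 labelled UMIs. Labels were predicted from 13 principal components of 4564 variable genes (3000 per library) without the 10 genes, with 15 neighbours and 5 folds. Marker groups were read as sums over lists of symbols.

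Named genes are the 10 members, the 3 lists of tip, stalk and partner genes, and for members Tip specific at P6 or highest in another cluster the 3 genes most like them. Members and lists were chosen with earlier results of these data known. The code was run with scikit-learn 1.9.0, matplotlib 3.10.9, pandas 2.3.3, scipy 1.17.1 and numpy 2.4.6 under Python 3.11.15, and was tested on simulated data. No doublet caller was run, and an alternative left out cells that held Xist beside Y-linked transcripts (12 labelled P6 and 4 labelled P15 cells). Other alternatives were thinning to 3000 UMIs, means over cells, looser folds (2 and 1.5), a denominator without mitochondrial, ribosomal and haemoglobin genes, references without Proliferative cells, predicted labels, leaving out the top Tip cell, cells without pericyte markers, cells of at most 3500 genes, and other sets of cells for the ages. Venous, Proliferative and Arterial cells of P15 were left out of the order of clusters, with under 30 cells each. Bulk and imaging data of the study were not used here.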

Additional observations from a re-analysis of the deposited data

Results flagged for a closer look

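A receptor lay on different sides of 1 at the 2 ages. Unc5b stood at 1.11 times the other labelled cells in Tip at P6 and at 0.924 times at P15. It was picked out because the values lie on opposite sides of 1, both intervals hold 1, and the difference was not tested. With cells thinned to 3000 UMIs both values were below 1, at 0.788 and 0.539, and the P6 value was also below 1 as a mean over cells (0.977) and without Proliferative cells (0.967).

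A signal also appeared in barcodes outside the labelled cells, those with a UMI of Cd63 and at most 3500 genes. These were picked out because the lower limit of the level there lay above the upper limit in the labelled cells. At P6 the ligand genes had 177 CPM (Esm1), 301 (Apln) and 158 (Adm), the channel subunit Kcne3 87.2, the receptor genes Unc5b 84.9 and Plaur 68.6, and the adhesion and matrix genes Mcam 296 and Lamb1 224. At P15 Esm1 had 25.3 and Mcam 194.7. The same barcodes had 633.5 CPM of pericyte, 1064 of neural and 1066 of blood markers at P6, and 7292 of pericyte, 1914 of blood and 839.7 of smooth muscle markers at P15, and whether foreign cells or free RNA account for the levels was not tested.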

How the results depend on the processing

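Esm1 was Tip specific at P6 under every alternative. No ratio past a limit changed direction, but values near 1 crossed it: Unc5b in Tip at P6 (0.788 thinned, 0.977 as a mean over cells, 0.967 without Proliferative cells), Pdgfb in Tip at P15 (0.976 as a mean) and Aplnr between ages (1.10 with every barcode, 1.11 in labelled cells, 1.07 in these without Proliferative). Looser folds of 2 and 1.5 named 4 genes at P6 (Esm1, Adm, Kcne3 and Plaur), by their construction. At P15 thinning left 2 (Adm and Plaur), as Esm1 and Kcne3 fell to 15 labelled UMIs each, under the minimum of 20. The thinned ratio of Kcne3 was 4.55, and leads after thinning are not comparable, since Primitive and Capillary cells, 15 and 12 after thinning, were no longer ranked. Cells without a pericyte marker UMI left 2 (Apln and Plaur): Esm1 kept 6 UMIs (6.99, with a lead of 1.32 under the limit) and Kcne3 15 (4.66, lead 2.63), and Adm fell under the folds at 2.93 and 1.82 while Apln passed at 3.21 and 2.01, of which the cause was not tested. Predicted labels over all passing P15 cells named 5, adding Apln at 5.31 with a lead of 2.96, and without its top Tip cell Esm1 fell to 3.69 on 14 UMIs and 3 genes remained. In cells of at most 3500 genes Esm1 kept 19 UMIs at 12.7 with a lead of 4.802, and again 3 remained. At P15 Pdgfb passed 1.5-fold when thinned (1.63) and without pericyte marker cells (1.67), and Aplnr fell under it with predicted labels (1.47). The P15 Tip ratio of Esm1 was 18.8 after thinning and 17.8 as a mean over cells, and that of Unc5b 0.539 and 0.606. Genes lower at P15 numbered 2 with every barcode or with labelled cells, where Mcam narrowly missed the limit at 0.512 and 0.503, and 3 otherwise. Adm was the only gene higher under each alternative. Of the ratios under alternatives, 86 of 90 at P6, 86 of 90 at P15 and 63 of 80 between ages lay inside the reported interval. The P15 calls of Esm1 and Kcne3 rest on few UMIs, and both were kept with predicted labels over more cells. Some alternatives, those without pericyte marker cells and of at most 3500 genes among them, were chosen after seeing the data. No paired analysis was possible because each age is 1 library and no cells are shared between them.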

Other observations

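Surface and secreted genes were also read in barcodes left out for gene number alone. The 92 such P6 barcodes, with over 3500 genes and none of the 3 contaminant genes, had 398 CPM of Apln, 509 of Aplnr, 52.0 of Esm1 and 22.2 of Unc5b. With Cd63 and over 3500 genes, 65 barcodes had 116 CPM of Esm1. Aplnr ran opposite to Esm1 in its relation to Cd63, which was present in 7.10% of P6 barcodes with Aplnr and 22.1% of those without, at 1500 to 3500 genes.

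Predicted labels gave 170 P15 Tip cells, in which Adm had 1281 CPM, Aplnr 915, Apln 621, Lamb1 241, Mcam 204.9, Plaur 119, Pdgfb 100.4, Esm1 48.7, Kcne3 46.7 and Unc5b 44.7.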
